A study of Mus musculus with 9 samples.

Results

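The genes described here are direct targets of the transcription factor p53, with its own gene Trp53, in KO, Het and WT lines of mouse embryonic fibroblasts (MEFs) for the gene Oga. Members were chosen by symbol: all probe sets of the deposited table whose platform annotation gives one of 33 listed genes. Of these, 30 genes had a probe set, 60 probe sets in all out of 45037, and all 30 had at least 1 probe set past the filter on low values. Array values of Trp53, Bax and Gdf15 were not analysed here, and these genes entered the promoter search only.

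MEF cultures are derived from whole embryonic tissue and are mostly fibroblasts, with some other cells. The groups were a KO line (Oga knockout, line code E7), a Het line (Oga heterozygous, E4) and a WT line (E8), each from a female embryo at stage E12.5, grown in DMEM and measured on 3 expression arrays. Oga encodes O-GlcNAcase, which removes the sugar N-acetylglucosamine from serine and threonine residues of proteins. The parents came from a floxed Oga allele on a C57B1/6 background crossed with MMTV-Cre mice (B6129-Tgn(MMTV-Cre)1Mam), whose Cre is driven by a mammary tumour virus promoter; heterozygous offspring were then intercrossed. The design text calls the 3 arrays of a line technical replicates, so each genotype is 1 line, every p-value below measures the spread between arrays of a line, and genotype cannot be told apart from any other difference between the lines.

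Cells hold p53 at a low level because Mdm2 marks it for destruction, with Mdm4 as a partner that blocks its activity. DNA damage, oncogene activity or other stress frees p53, which then binds paired half-sites in DNA and switches on genes for cell cycle arrest, cell death, DNA repair and metabolism, and also Mdm2 itself, which closes a feedback loop. In fibroblast cultures this response is known for limiting growth under culture stress.

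The sequences p53 binds are shown first, for members whose promoters held them. Promoter windows from RefSeq (build GRCm38.p6), running from 250 bases before to 50 after each annotated start, were searched for the p53 half-site consensus, a palindrome of 10 bases, so that one strand covers both. Of 25 members with a window, 11 held an exact half-site in at least 1 window, and 9.56% of all 27018 genes did. A full site was taken as half-sites with intact cores, at most 13 bases apart, with at most 2 mismatches over its 20 bases; 3 members held one (Cdkn1a, Bax and Sesn1), and 2.47% of all genes did. Members were listed because they are known p53 targets, so these shares are a description. A match is not a measured binding site, and known sites farther from the start or in introns lie outside these windows. Perp, Pmaip1, Zmat3, Ddb2, Xpc, Rrm2b, Trp53inp1 and Tnfrsf10b had no window in the table. The following 4 stretches, each upstream of an annotated start, belong to 3 genes that were higher and 1 that was lower in the KO line; capitals mark half-sites of a full site, or an exact half-site.
Cdkn1a, chr17:29090876-29090977, plus strand: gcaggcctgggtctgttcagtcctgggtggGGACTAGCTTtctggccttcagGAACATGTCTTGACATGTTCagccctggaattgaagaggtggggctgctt
Sesn1, chr10:41887223-41887305, plus strand: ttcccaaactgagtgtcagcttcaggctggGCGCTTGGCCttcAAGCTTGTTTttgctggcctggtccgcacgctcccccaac
Mdm2, chr10:117710905-117710974, minus strand: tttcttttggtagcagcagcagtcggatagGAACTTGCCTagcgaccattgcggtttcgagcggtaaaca
Ccng1, chr11:40755432-40755501, minus strand: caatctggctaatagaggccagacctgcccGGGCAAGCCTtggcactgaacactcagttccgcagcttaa
In the Cdkn1a stretch, which precedes the more upstream of 2 annotated starts, half-sites begin at -73, -51 and -41; the pair at -73 and -51 had 0 mismatches and a spacer of 12 bases, and those at -51 and -41 adjoin. In Sesn1 the pair begins at -186 with a spacer of 3 bases and 2 mismatches. Mdm2 and Ccng1 each held a single exact half-site, at -186 and -185.

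Array values are deposited log2 values, and differences are on that scale. Arrays of one line correlated at 0.997 or more over all probe sets, and arrays of the KO and WT lines at 0.989 to 0.991. Oga checked the labels: at its brightest probe set the KO arrays averaged 6.06 ± 0.0264, each Het array read 11.16, and the WT arrays averaged 11.92 ± 0.0325 (SD, n = 3 each). The 15 measured fibroblast markers ran from 8.91 to 15.13 in line means, with a median log2 difference of -0.08 between KO and WT. By the 2-fold rule given below 2 were called lower, Pdgfra (log2 difference -2.55) and Lum (-2.42), beside 2.58% of all genes. By adjusted p alone 6 were lower and 2 higher, beside 31.5% and 21.6% of all genes. The mean level of the 15 ran from 12.77 to 12.83 in KO, 13.13 to 13.14 in Het and 13.24 to 13.25 in WT arrays. Other cell types moved with the lines too. All 17 measured macrophage markers of 18 listed were called lower in KO than in WT arrays by the 2-fold rule given below, beside 2.58% of all genes, and their mean level ran from 9.65 to 9.71 in KO, 11.05 to 11.11 in Het and 11.44 to 11.47 in WT arrays. Of 16 measured skeletal muscle markers of 18 listed, 11 were called higher, beside 0.988% of all genes, and their mean level ran from 8.005 to 8.08 in KO, 7.45 to 7.59 in Het and 6.91 to 6.97 in WT arrays. In such bulk cultures fewer cells of a type and less RNA per cell cannot be told apart. RNA quality was read from actin controls, as the log2 value at the 3′ end less that at the 5′ end, which ran from 0.052 to 0.087 in KO, 0.093 to 0.12 in Het and 0.060 to 0.082 in WT arrays. For GAPDH it ran from -0.10 to -0.036 in KO, -0.0077 to 0.0041 in Het and -0.088 to -0.069 in WT arrays, so the Het arrays stood above the others for both controls. The part of these shifts in the p53 target differences was not tested.

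Targets of p53 were mostly higher in the KO line. A gene was called when its limma p, adjusted over all 12962 genes by Benjamini-Hochberg, was below 0.05 and its difference reached 2-fold. By this rule 7 of the 30 measured members rose in the KO line against WT and 0 fell. Over all genes tested, 0.988% were called higher and 2.58% lower in that comparison. The 7 were Perp, Sfn, Pmaip1, Rprm, Btg2, Eda2r and Mdm2. By adjusted p alone, 20 members were higher and 5 lower, where 21.6% of all genes were higher and 31.5% lower. The count of 5 lower became 3 without WT replicate 1, KO replicate 1 or KO replicate 2, since Xpc and Rap2b then missed the threshold. It became 4 without WT replicate 2 or 3, Het replicate 2 or 3, or KO replicate 3. The median log2 difference was 0.47 over the 30 members and -0.03 over all genes tested. In 22 of 30 members every KO array lay above every WT array, and in 4 every KO array lay below; over all genes these shares were 25.7% and 36.1%. The members were listed with earlier results of these data known, so the counts describe the list.

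**Figure D1:**
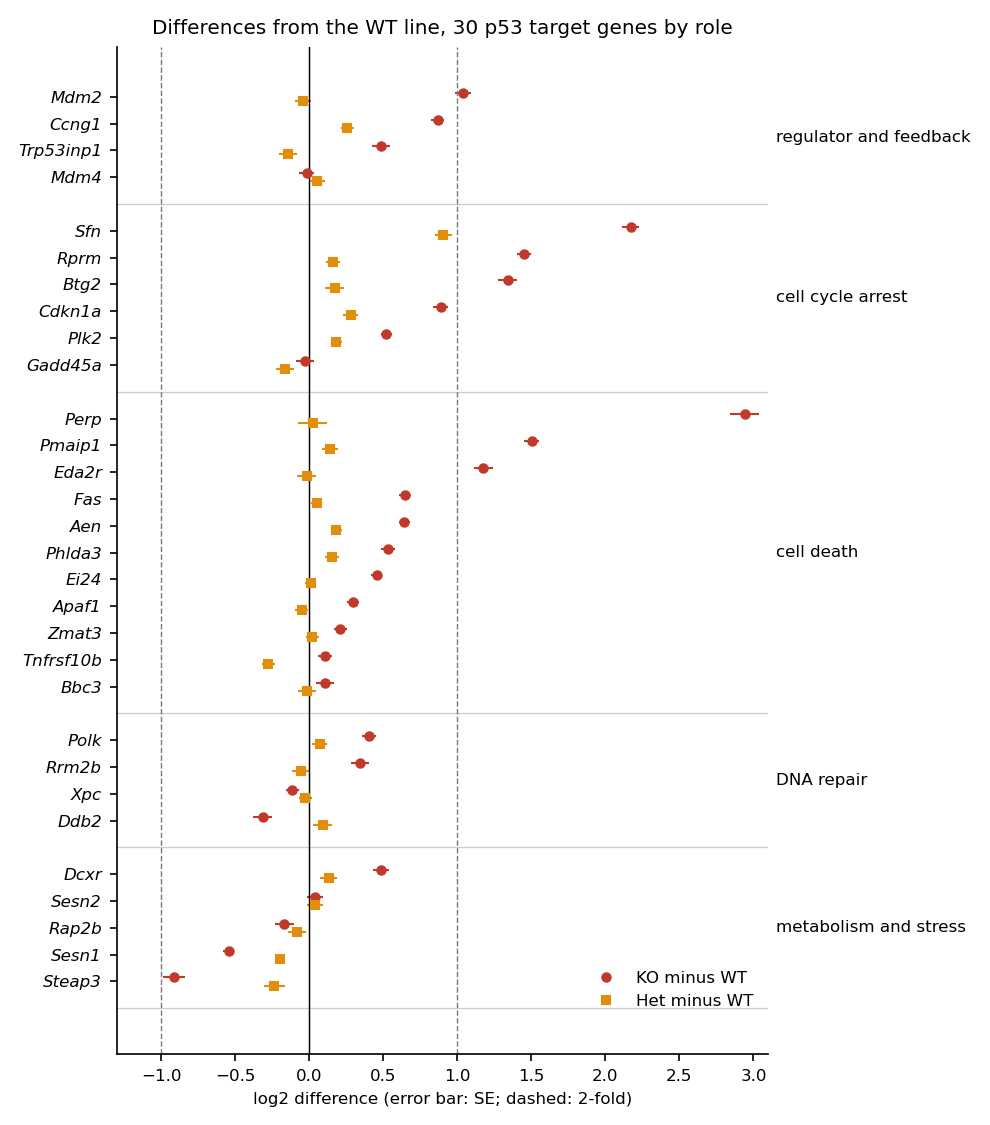
Log2 difference from the WT line (x axis) of the 30 measured p53 target genes (y axis), grouped by role, for the KO line (circles) and the Het line (squares), with SE bars from limma and dashed lines at 2-fold. Perp stands farthest out at 2.94, 6 other genes of the KO line lie at or beyond the upper 2-fold line, and every Het difference lies inside both lines.

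Among the regulators of p53 itself, Mdm2 rose and Mdm4 did not pass. Mdm2, the ubiquitin ligase that targets p53 and is one of its main transcriptional targets, read 12.44, 12.24 and 12.39 in KO arrays, 11.23, 11.25 and 11.35 in Het arrays and 11.32, 11.35 and 11.29 in WT arrays. All KO arrays stood above all others, while Het and WT arrays overlapped. The rise over WT was 2.05-fold (log2 difference 1.04 ± 0.055, SE; limma adjusted p = 4.5e-08), just inside the 2-fold limit, and it fell short of that limit without KO replicate 1 (0.996) or after quantile normalization (0.994). A further Mdm2 probe set gave 1.06, but there all Het arrays lay below all WT arrays (-0.35; adjusted p = 0.00836 over all probe sets). Mdm4, the partner of Mdm2 that blocks p53 activity, differed by -0.02 (adjusted p = 0.822), with 9.25, 9.21 and 9.07 in KO, 9.24, 9.21 and 9.29 in Het and 9.23, 9.16 and 9.19 in WT arrays.

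Both other measured feedback genes were higher without reaching 2-fold. Ccng1 encodes cyclin G1, which acts with a phosphatase on Mdm2, and Trp53inp1 encodes a nuclear protein that promotes p53 activity under stress. Ccng1 read 13.26, 13.29 and 13.21 in KO, 12.68, 12.62 and 12.62 in Het and 12.32, 12.45 and 12.39 in WT arrays, a difference of 0.87 ± 0.045 between KO and WT (limma adjusted p = 3.4e-08). Its 3 lines did not overlap at this probe set. The other 2 Ccng1 probe sets gave 0.89 and 0.87 between KO and WT, but -0.16 and -0.17 between Het and WT where the first gave 0.26, so the place of the Het line differed between probe sets. Trp53inp1 was 0.49 ± 0.062 higher in KO than in WT, with 0.33 at its other probe set, and gave -0.14 between Het and WT (adjusted p = 0.0977).

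The cell cycle arrest genes had the highest median of the role groups, 1.12 over 6 genes. Of these 3 rose, beside 0.988% of all genes, 2 more were higher by adjusted p alone and 1, Gadd45a, did not pass. The 5 higher by adjusted p stand beside 21.6% of all genes. Cdkn1a, which encodes p21, the inhibitor of cyclin-dependent kinases that carries out much of p53's arrest, was already abundant in WT. It read 13.66, 13.70 and 13.69 in KO arrays, 12.96, 13.15 and 13.12 in Het arrays and 12.79, 12.81 and 12.79 in WT arrays. The lines did not overlap and the Het line lay between the others. Cdkn1a was 1.85-fold higher in KO than in WT (0.89 ± 0.050; limma adjusted p = 6.6e-08), short of a call, and its other probe set gave 0.97. The Het difference from WT was 0.28 (adjusted p = 0.00156).

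Sfn, the gene of 14-3-3 sigma, which holds mitotic kinase complexes in the cytoplasm and is best known from epithelia, had the largest rise of this group. It read 9.61, 9.69 and 9.69 in KO arrays, 8.30, 8.46 and 8.44 in Het arrays and 7.48, 7.58 and 7.42 in WT arrays. All 3 lines were separate, with the Het line between. The KO line was 4.50-fold above WT (2.17 ± 0.056; limma adjusted p = 1.7e-10) and the Het line 1.87-fold above it (0.91; adjusted p = 1.35e-06), the largest Het difference among the members.

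Rprm and Btg2 rose in the KO line, with smaller differences between Het and WT. Rprm encodes reprimo, a p53-induced glycoprotein linked to arrest before mitosis. It read 9.70, 9.70 and 9.81 in KO arrays, 8.43, 8.40 and 8.52 in Het arrays and 8.26, 8.31 and 8.30 in WT arrays. The rise over WT was 2.73-fold (1.45 ± 0.046; limma adjusted p = 8.0e-10), and all Het arrays also stood above all WT arrays, by 0.16. Btg2, an antiproliferative gene that recruits the deadenylase complex to messenger RNAs, read 12.09, 12.16 and 11.99 in KO, 10.81, 10.89 and 11.03 in Het and 10.78, 10.79 and 10.65 in WT arrays. It rose by 1.34 ± 0.065 (limma adjusted p = 2.0e-08), and its other probe set gave 1.28. All Het arrays of Btg2 stood above all WT arrays, by 0.17 (adjusted p = 0.0623) at the first probe set and by 0.32 (adjusted p = 0.00358 over all probe sets) at the other. Plk2, a polo-like kinase gene induced by p53 and by growth stimuli, was 0.52 ± 0.036 higher in KO than in WT. Gadd45a, a stress sensor gene that binds PCNA and p21, gave -0.03 (adjusted p = 0.715), with 10.28, 10.31 and 10.34 in KO, 10.12, 10.09 and 10.30 in Het and 10.25, 10.38 and 10.38 in WT arrays that overlapped.

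**Figure D2:**
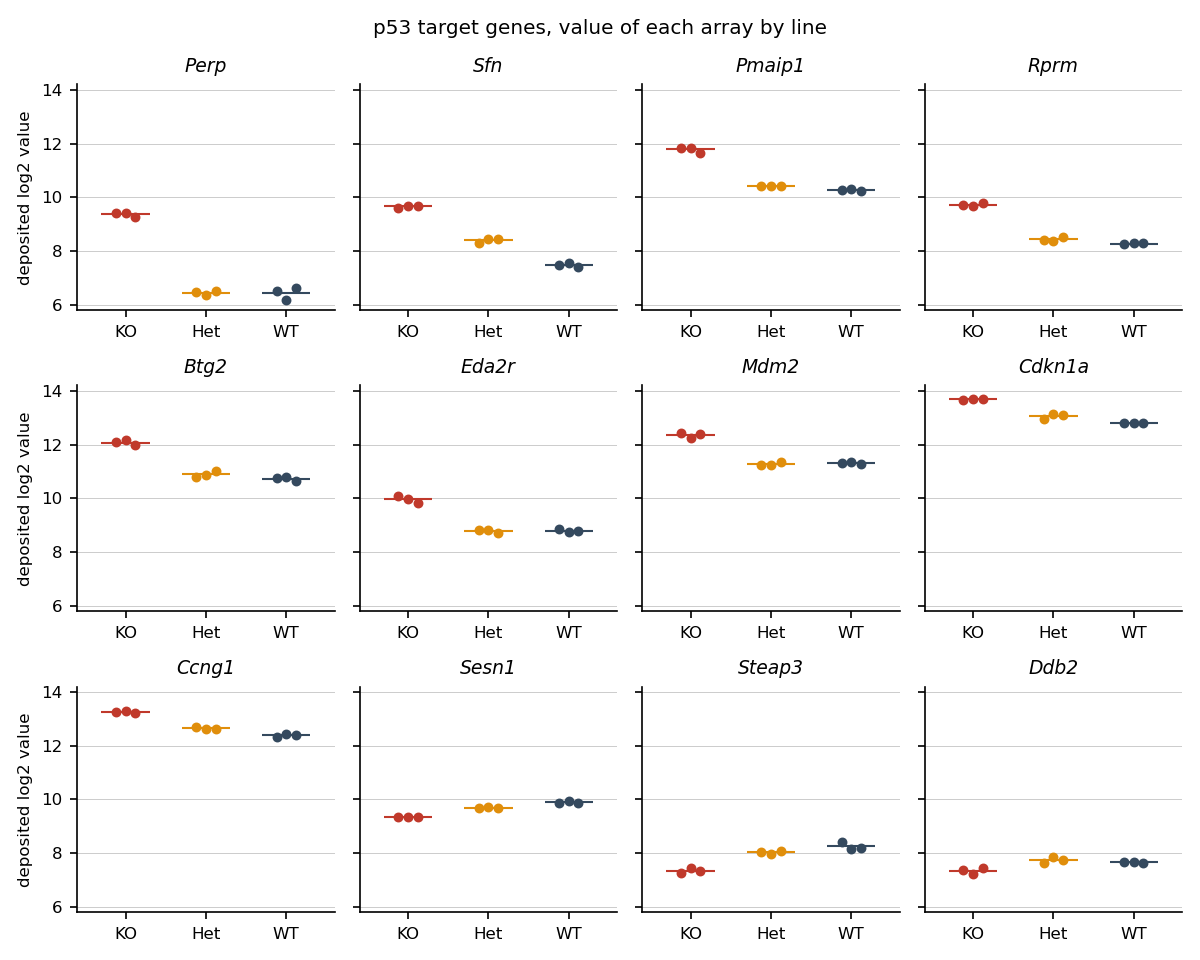
Deposited log2 value (y axis, the same in all panels) of each array for 12 p53 target genes: the 7 called in KO against WT, and Cdkn1a, Ccng1, Sesn1, Steap3 and Ddb2, with the KO, Het and WT lines along the x axis; each point is an array and each bar a line's mean. For Perp, Eda2r and Mdm2 the Het arrays lie among the WT arrays, while for Sfn, Cdkn1a and Ccng1 they lie between the KO and WT arrays.

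At the probe sets used, every KO array lay above every WT array in all 11 measured cell death genes. Over all genes this share was 25.7%. Of the 11, 3 rose, beside 0.988% of all genes, and 6 more were higher by adjusted p alone. These 9 stand beside 21.6% of all genes higher by adjusted p, and 2 members of the group did not pass. Perp encodes a tetraspan membrane protein that p53 induces in dying cells and that p63 uses in desmosomes of epithelia. It read 9.44, 9.41 and 9.29 in KO arrays, 6.50, 6.37 and 6.52 in Het arrays and 6.51, 6.18 and 6.63 in WT arrays. The Het and WT values overlapped and lay near the low-value cut of 6.22, and all KO arrays were far above them. The rise was 7.67-fold over WT (2.94 ± 0.097; limma adjusted p = 1.05e-09), and Het differed from WT by 0.02 (adjusted p = 0.868). With Het and WT so near the cut, the size rests on the deposited processing.

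Pmaip1 (Noxa), a BH3-only gene whose protein neutralizes the survival factor Mcl1, read 11.85, 11.85 and 11.66 in KO arrays, 10.43, 10.43 and 10.42 in Het arrays and 10.29, 10.32 and 10.24 in WT arrays. It rose 2.83-fold over WT (SE of the log2 difference 0.053; limma adjusted p = 1.7e-09). All Het arrays stood above all WT arrays, by 0.14 (adjusted p = 0.0587). Bbc3 (Puma), the other BH3-only gene of the list, did not pass (0.11, adjusted p = 0.152): it read 9.53, 9.46 and 9.52 in KO arrays, 9.25, 9.42 and 9.47 in Het arrays and 9.41, 9.45 and 9.32 in WT arrays. Whether the Pmaip1 and Bbc3 differences differ from each other was not tested.

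Of the receptor genes of this group Eda2r was called, and Fas and Tnfrsf10b were not. Eda2r, the X-linked receptor for ectodysplasin A2, rose 2.26-fold over WT (1.18 ± 0.063; limma adjusted p = 4.6e-08), with 10.09, 9.99 and 9.84 in KO, 8.81, 8.82 and 8.71 in Het and 8.85, 8.74 and 8.79 in WT arrays. The Het and WT arrays overlapped. Fas, the receptor of Fas ligand, was higher by 0.65 ± 0.039, with 8.94 to 8.96 in KO, 8.29 to 8.39 in Het and 8.30 to 8.31 in WT arrays. Tnfrsf10b, the TRAIL receptor gene, gave 0.11 (adjusted p = 0.0689) at its brighter probe set, which can detect several transcripts, and 0.48 at the other.

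The remaining genes of the group were higher by less than 2-fold. Aen, a nuclease gene that p53 induces in apoptosis, gave 0.64 ± 0.037 with 3 further probe sets from 0.49 to 0.71. Phlda3, whose protein competes with Akt for membrane lipids, gave 0.53, and Ei24, an endoplasmic reticulum protein gene, gave 0.46. Apaf1, the scaffold of the apoptosome, gave 0.30 with 0.08 at its second probe set. That second probe set did not pass (limma adjusted p = 0.539 over all probe sets), and its KO and WT arrays overlapped. Zmat3, an RNA-binding protein gene, gave 0.21 (adjusted p = 0.00190). At the probe set used for each of these 5 genes, all KO arrays stood above all WT arrays.

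DNA repair members split by direction. Polk, a polymerase that copies past damaged bases, was 0.40 ± 0.048 higher in KO than in WT (limma adjusted p = 3.5e-05), and Rrm2b, a ribonucleotide reductase subunit that supplies nucleotides outside S phase, was 0.34 ± 0.060 higher. Their second probe sets past the filter gave 0.22 for Polk (adjusted p = 0.103 over all probe sets) and 0.24 for Rrm2b (adjusted p = 0.116), and neither passed. Ddb2 and Xpc, which recognize damage for nucleotide excision repair, were lower. Ddb2 read 7.39, 7.23 and 7.43 in KO arrays, 7.65, 7.87 and 7.75 in Het arrays and 7.67, 7.68 and 7.65 in WT arrays, a difference of -0.31 ± 0.065 (limma adjusted p = 0.00177), and its other probe set gave -0.83. Xpc gave -0.11 (adjusted p = 0.0456). None of the 4 reached 2-fold.

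The metabolism and stress members were the group with a negative median, -0.17 over 5 genes. Steap3, a metalloreductase gene of iron uptake, was lowest: it read 7.27, 7.45 and 7.34 in KO arrays, 8.04, 7.96 and 8.09 in Het arrays and 8.43, 8.16 and 8.20 in WT arrays. The lines did not overlap. The difference between KO and WT was -0.91 ± 0.073 (limma adjusted p = 1.25e-06), short of a call, and its other probe sets gave -0.96 and -1.13, the last called lower among all probe sets, where 1.21% were. Sesn1, a sestrin gene that restrains mTORC1 and is a p53 target, read 9.35, 9.33 and 9.35 in KO arrays, 9.68, 9.71 and 9.68 in Het arrays and 9.86, 9.93 and 9.87 in WT arrays. It differed by -0.54 ± 0.036 (limma adjusted p = 2.9e-07), with the lines again separate, but its other probe sets past the filter gave -0.40 and -0.01. Sesn2, the stress-induced sestrin gene, gave 0.04 (adjusted p = 0.569) and 0.30 at its other probe set. Dcxr, a carbonyl reductase gene, was 0.49 higher. Rap2b, a small GTPase gene, gave -0.17 (adjusted p = 0.0432), with KO and WT arrays overlapping.

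**Figure D3:**
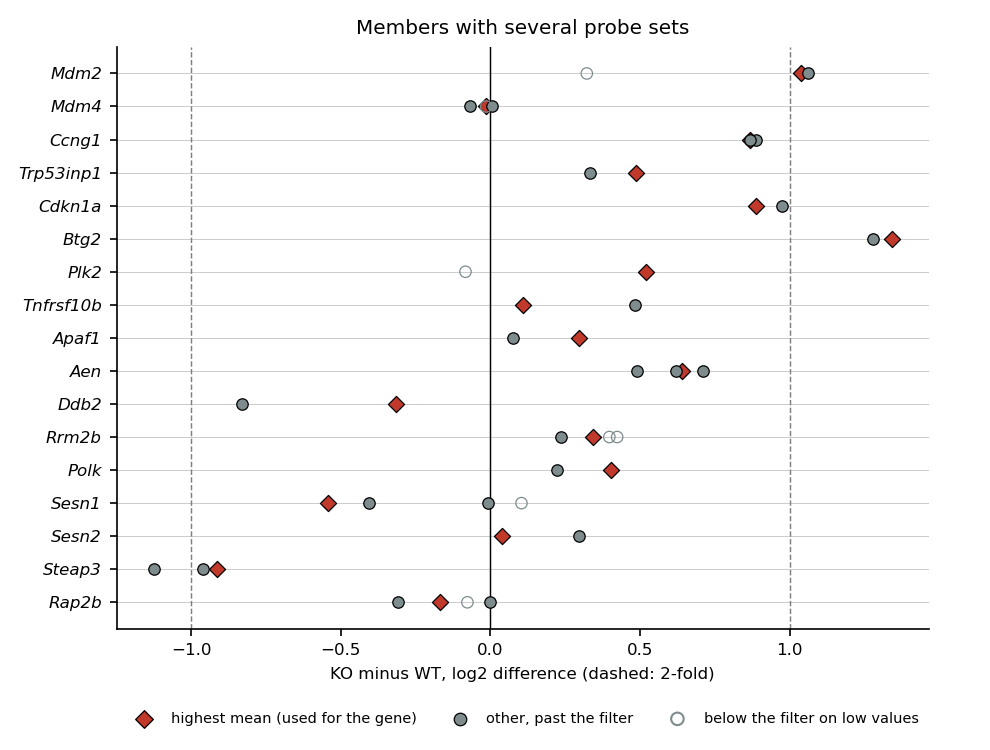
KO minus WT log2 difference (x axis) of every probe set of the 17 members with more than 1 (y axis), from the fit of all 45037 probe sets; diamonds are the probe sets with the highest mean, filled circles others past the filter, open circles those below it, and dashed lines 2-fold. The probe sets of Btg2, Ccng1, Cdkn1a and Aen lie close together, while those of Ddb2, Sesn1 and Tnfrsf10b are spread.

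Several probe sets past the filter were available for 16 members, and in 1 of them, Mdm4, they differed in sign between KO and WT, at -0.07, -0.02 and 0.0040. In the fit of all probe sets without the filter, 9 of the 60 member probe sets were called higher, beside 0.646% of all probe sets, and 1 was called lower. The 7 probe sets below the filter had no call.

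Between Het and WT no member reached 2-fold. By the 2-fold rule 0 of 30 members were called by limma, beside 0.0540% of all genes called higher and 0.201% lower; at an unadjusted p under 0.05 without a fold minimum, 10 members were higher and 5 lower, beside 18.3% and 26.0% of all genes. By adjusted p alone 10 members differed, 7 higher and 3 lower, beside 34.4% of all genes in either direction and 13.4% higher. This balance moved with the processing. With median centring 5 were higher and 5 lower, beside 4472 of 12962 genes in either direction. The most variable probe set gave 5 higher and 8 lower, beside 5133 of 12962 genes. In 10 members every Het array lay above every WT array and in 5 below, beside 19.8% and 27.9% of all genes. The median member difference was 0.03, against -0.01 over all genes. The 7 were Sfn (0.91), Cdkn1a (0.28), Ccng1 (0.26), Aen (0.18), Plk2 (0.18), Rprm (0.16) and Phlda3 (0.15). The 3 lower ones were Tnfrsf10b (-0.27), Steap3 (-0.23) and Sesn1 (-0.20). For some of them the sign turned at other probe sets. As for Ccng1, Aen gave -0.17 and -0.18 at a pair of them and 0.15 at the third. Tnfrsf10b gave 0.06 at its other one, and Sesn1 gave 0.21 at one and -0.20 at another. Outside these 10 members, other probe sets past the filter also passed. In limma over all probe sets, Apaf1 (-0.53, adjusted p = 0.00142), Mdm2 (-0.35), Polk (-0.35, adjusted p = 0.0232) and Ddb2 (-0.29, adjusted p = 0.00718) were lower there. Btg2 (0.32) was higher. At the probe set used, Ddb2 gave 0.09.

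Set against the Het line, the KO line again had 7 members called higher and 0 lower, beside 0.625% and 1.37% of all genes. The comparisons share the KO arrays, so this is not a separate test of the same genes. Perp differed by 2.92, Pmaip1 by 1.36, Rprm by 1.29, Sfn by 1.26, Eda2r by 1.19, Btg2 by 1.17 and Mdm2 by 1.08, with limma adjusted p of at most 1.1e-07. By adjusted p alone 21 members were higher and 3 lower, beside 23.7% and 28.6% of all genes, and the member median was 0.38, against -0.02 over all genes.

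Other genes of the pathway were taken from lists. Among 28 measured further p53 targets of 30 listed, 1 rose and 1 fell in KO against WT, 15 were higher and 6 lower by adjusted p alone, and the median was 0.26. Beside these stand 0.988% and 2.58% of all genes called, and 21.6% and 31.5% by adjusted p alone. Lif, a cytokine gene of the interleukin 6 family, rose to 9.79, 9.71 and 9.84 in KO arrays, against 8.55, 8.55 and 8.58 in Het arrays and 8.03, 8.16 and 8.12 in WT arrays (log2 difference from WT 1.68 ± 0.048; limma adjusted p = 3.6e-10). Igfbp3, which encodes a binding protein of insulin-like growth factors, fell to 10.91, 10.91 and 10.90 in KO arrays, against 11.76, 11.81 and 11.87 in Het arrays and 12.62, 12.59 and 12.497 in WT arrays (-1.66 ± 0.044; limma adjusted p = 2.3e-10). For both genes the lines were separate and the Het line lay between.

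Of 20 measured upstream regulators of 22 listed, 1 rose in KO against WT and 0 fell; 7 were higher and 7 lower by adjusted p alone, and the median was -0.06. The shares by adjusted p, 35% each way, stand beside 21.6% and 31.5% of all genes, and the call beside 0.988%. Hipk2, a kinase that phosphorylates p53 in the switch to apoptosis, read 11.46, 11.42 and 11.40 in KO arrays, 10.46, 10.34 and 10.39 in Het arrays and 10.31, 10.24 and 10.37 in WT arrays, a rise of 1.12 ± 0.047 (limma adjusted p = 7.0e-09). The KO arrays stood apart, and Het and WT arrays overlapped. Chosen after their values were seen, the damage kinase genes Atm (-0.53) and Prkdc (-0.66) were lower, and Cdkn2a, the locus of the Mdm2 inhibitor Arf and of the kinase inhibitor p16, was higher by 0.44, all short of 2-fold.

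Genes that p53 is known to lower through p21 and the DREAM repressor complex, such as mitotic genes, were not called. Of 23 measured genes of 24 listed, 0 were called by limma in KO against WT, beside 3.56% of all genes in either direction. By adjusted p alone 4 were higher and 7 lower, beside 21.6% and 31.5% of all genes, at an unadjusted p under 0.05 they were 5 and 8, beside 23.9% and 34.1% of all genes, and the median was 0.01. The largest differences were in Ect2, a cytokinesis regulator (0.35), and Ccnb2, a mitotic cyclin gene (-0.34). Between KO and Het the median was -0.13, against -0.02 over all genes. By adjusted p alone 2 were higher and 9 lower there, beside 23.7% and 28.6% of all genes.

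Stress and growth-stimulus genes were listed because some members respond to these signals too. Of 21 measured immediate early genes of 23 listed, 2 rose in KO against WT, the phosphatase gene Dusp1 (1.44) and the transcription factor gene Egr2 (1.12), beside 0.988% of all genes. On adjusted p alone 12 were higher and 4 lower, beside 21.6% and 31.5% of all genes, and the median was 0.21. Of 17 integrated stress response genes 0 were called by limma, beside 3.56% of all genes in either direction. Going by adjusted p alone, 1 was higher and 7 lower, beside 21.6% and 31.5% of all genes, and at an unadjusted p under 0.05 they were 1 and 9, beside 23.9% and 34.1%. The median was -0.11, with Nupr1, a stress-induced chromatin protein gene (0.94), and Trib3, a pseudokinase gene (-0.73), farthest out.

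**Figure D4:**
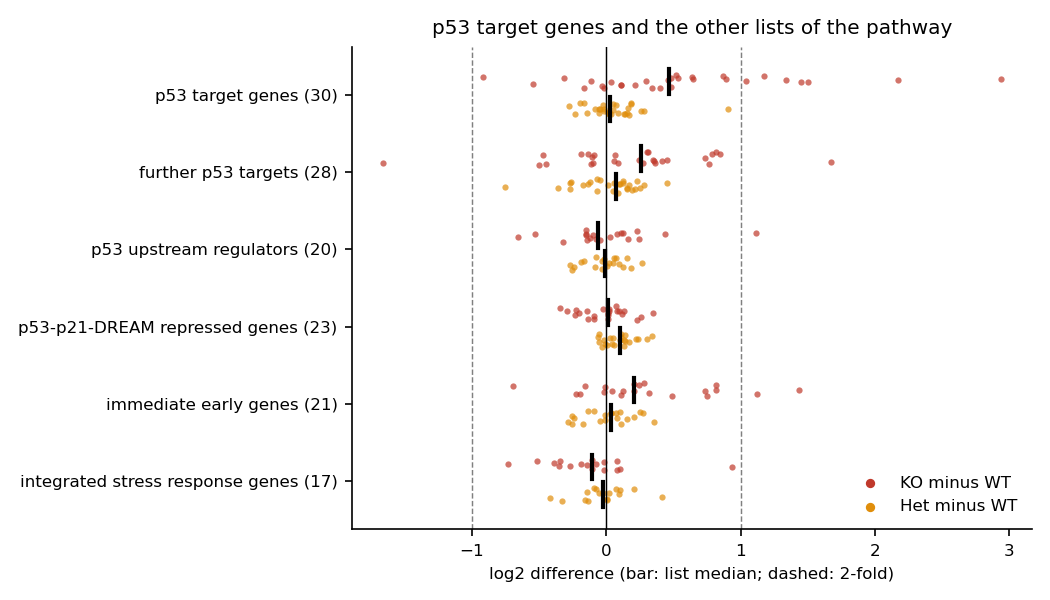
Log2 difference from WT (x axis) of each measured gene of the p53 target list and 5 other lists (y axis, number of genes in parentheses), for the KO line (upper row of points) and the Het line (lower row), with list medians as black bars and 2-fold as dashed lines. The KO median is 0.47 for the p53 targets, 0.26 for the further targets and between -0.11 and 0.21 for the other 4 lists.

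Because Perp and Sfn are also genes of epithelia, epithelial and mesothelial markers were set beside them. Of 17 listed, 7 were measured past the filter, and 2 rose in KO against WT, the keratin genes Krt18 (1.68) and Krt19 (1.26), beside 0.988% of all genes. Of the 7, 5 were higher and 0 lower by adjusted p alone, beside 21.6% and 31.5%. Besides the keratin genes named, these were Cldn4 (0.50), Krt5 (0.26) and Epcam (0.24), and Ppl gave -0.03. The Epcam probe sets differed in sign. Its other one, below the cut, gave -0.10 (limma adjusted p = 0.260 over all probe sets), with all KO arrays below all WT arrays. The mean level of the 7 genes ran from 7.72 to 7.83 in KO, 7.33 in each Het array and 7.19 to 7.25 in WT arrays. The defining epithelial cadherin gene Cdh1 read 4.03 in KO, 4.25 in Het and 4.21 in WT means, and the 4 probe sets of Trp63, the p63 gene, ran from 4.35 to 5.33 in line means, all below the low-value cut. Some other markers below the cut were higher in KO than in WT in the limma fit of all probe sets. Dsp, the desmoplakin gene, rose by 2.81 and 2.27 at 2 of 3 probe sets. The mesothelial genes Upk3b (0.45 at one of its probe sets, adjusted p = 5.7e-05) and Msln (0.33, adjusted p = 0.0171) were higher short of 2-fold. Wt1, also mesothelial, gave -0.31 (adjusted p = 0.0109). The rest of the list below the cut did not pass adjusted p. Krt14 gave -0.14, -0.01 and -0.00080, Cldn7 -0.18, Ocln -0.05 and 0.02, Lrrn4 0.10 and Esrp1 0.13. Krt8 gave 0.09 at its brightest probe set, and -0.11 and -0.31 at 2 below the cut. The part of epithelial or mesothelial cells in the Perp and Sfn differences was not tested.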

How the data were processed

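Total RNA was measured on 9 Affymetrix-type expression arrays, 3 for each of the KO, Het and WT lines. The authors deposited one log2 value per probe set and array (45037 probe sets without 64 controls; range 3.25 to 15.15); the base was taken from the values. Per the submitters' processing notes the software included GCOS and Partek, with no roles or versions; the steps of background correction and normalization are not given in the sources used here. Medians of the arrays ran from 6.87 to 6.95, so no further normalization was applied. The 40% of probe sets with the lowest overall mean (below 6.22) were left out, and the probe set with the highest mean stood for a gene. Genes were named from the platform annotation, where 34945 probe sets carried 1 symbol. The model was limma 3.58.1 (lmFit, eBayes) in R 4.3.3 on all 9 arrays, with Benjamini-Hochberg adjustment over all genes; it was tested on simulated data. A second fit covered all probe sets. Figures used matplotlib 3.10.9. Members and lists were chosen with earlier results of these data known. All members are named. Of the other pathway and stress lists and the fibroblast markers, up to 4 called members are named, or the 2 with the largest differences. Atm, Prkdc and Cdkn2a were added after their values were seen. Macrophage and skeletal muscle markers are given as counts and mean levels only, and epithelial and mesothelial markers by gene, called or not. Arrays give no read depth, and their number limits precision. Equal array numbers did not pair the arrays.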

Additional observations from a re-analysis of the deposited data

How the results depend on the processing

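Alternatives covered quantile normalization, median centring, filters at 0, 20% and 60%, the mean or most variable probe set, a trended and robust variance, fits of the 2 lines alone, a replicate block, other fold minimums and each array left out. The counts of members called higher, 7 in KO against WT, 0 in Het against WT and 7 in KO against Het, moved with the fold minimum by its construction: 11, 1 and 11 at 1.5-fold and 20, 7 and 21 without a minimum. Members called lower, 0 in all 3, became 1 in KO against WT and 1 in KO against Het at 1.5-fold, and 5, 3 and 3 without a minimum. The share of all genes at 1.5-fold was not counted, so the counts there have no background beside them. With the most variable probe set, 1 member, Steap3, was called lower in KO against WT (-1.13); the cause was not tested. Leaving out arrays gave 6 to 7 called higher in KO against WT, 7 to 7 in KO against Het and 0 to 0 in Het against WT, and 0 to 0 called lower. The one loss was Mdm2, without KO replicate 1 (0.996). Quantile normalization also lost Mdm2 (0.994). With the 60% filter Perp, Ddb2 and Tnfrsf10b were left out, so Perp was not among the members called higher there. Under these settings 718 gene values were followed. They covered the members in KO against WT, the 7 called ones in KO against Het, and Sfn alone in Het against WT. No called value changed sign, but called differences lay many SE from 0, so this could hardly have come out otherwise. Mdm4, not called, ran from -0.05 to 0.04 in KO against WT. Signs of members other than Sfn in Het against WT were not followed. By adjusted p alone, the 5 lower members in KO against WT became 3 with median centring, no filter, the 20% filter or the replicate block. They also became 3 without WT replicate 1, KO replicate 1 or KO replicate 2. They became 4 with quantile normalization, the 60% filter, the trended variance, the 2 lines alone or the most variable probe set. The same count of 4 held without WT replicate 2 or 3, Het replicate 2 or 3, or KO replicate 3. In Het against WT the 7 higher and 3 lower became 5 and 5 with median centring, and 5 and 8 with the most variable probe set. They became 10 and 5 with the trended variance, and 10 and 3 with quantile normalization. The member median there was -0.0065 with median centring, -0.012 with the most variable probe set and 0.064 with quantile normalization. With the replicate block 7 members were called higher in KO against WT, 0 in Het against WT and 7 in KO against Het. Same-numbered arrays of different lines deviated with r from -0.18 to 0.21, and 4 of 9 arrays correlated best with their own number. With the most variable probe set the count over all genes in Het against WT was 66, against 33. Genes near the low-value cut, such as Perp in Het and WT, have sizes limited by signal over background.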

Other observations

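Desmoplakin, encoded by Dsp, anchors keratin filaments at desmosomes, the junctions in which Perp is known to act. Its mean over all arrays lay below the low-value cut, so it was in no count of genes above. At its brightest probe set, which can detect several transcripts, it read 7.52, 7.40 and 7.37 in KO arrays, 4.73, 4.89 and 4.69 in Het arrays and 4.91, 4.40 and 4.55 in WT arrays. A second Dsp probe set read 6.69 ± 0.038 in KO, 4.67 ± 0.17 in Het and 4.42 ± 0.37 in WT arrays (SD, n = 3), and the third gave -0.01 between KO and WT. The first 2 were called higher in KO than in WT among all probe sets (limma adjusted p = 3.5e-08 and 1.5e-06, differences 2.81 and 2.27), where 0.646% were. With the Het and WT values below the cut, the sizes rest on the deposited processing. Like Perp, Dsp was high in the KO line alone, and the gene was chosen after its values were seen.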
